A study of Caenorhabditis elegans with 4 samples.

Results

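The 59 genes described here encode proteins that make a Caenorhabditis elegans neuron a neuron, or a neuron of 1 type. They were listed by name for their role, with earlier results of these data known, and they are 59 of 19971 protein-coding genes on the nuclear chromosomes. Of these genes, 16 are pan-neuronal, that is, used by essentially all neurons, and 43 are used by particular neuron types.

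The position of EFL-1 on chromatin was mapped by ChIP-seq, in which DNA crosslinked to a protein is pulled down with an antibody, here a rabbit polyclonal one, and sequenced. The animals were hermaphrodite first-stage larvae (L1) of strain MT10430, which carries lin-35(n745), fed on E. coli. The stated growth temperature was 20 °C, while the sample titles add the tag 26dC to the stage. The labels do not explain this tag, and if it is a temperature, it disagrees with the stated one. There were 2 ChIP samples and 2 input samples. All of them carried the same allele, so the effect of lin-35(n745) was not addressed. Whole larvae were used, so the cells in which a peak arose, and whether neurons were among them, cannot be told apart.

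EFL-1 belongs to the E2F transcription factors, and LIN-35 is the worm member of the retinoblastoma protein family. With partner proteins they form the DREAM complex, which is known for repressing cell cycle and germline genes in somatic cells. Only EFL-1 was pulled down here, and all animals carried lin-35(n745), so whether a peak marks the DREAM complex was not tested. Differentiated neurons do not divide, and their genes follow a different logic. Terminal selector transcription factors such as UNC-3, UNC-86 with MEC-3, CHE-1 and TTX-3 switch on the genes of 1 neuron type, while pan-neuronal genes draw on many redundant inputs.

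A gene was called bound when the centre of a peak lay within 500 bp of either end of the annotated gene. The intended rule uses the annotated start. The gene table at hand gives both ends of a gene without its strand, so a call can refer to the start or to the far end, whereas a gene that was not called was not bound at its start either. The peaks are in WS220 coordinates and the gene table is of assembly WBcel235, so the register between them was checked on the peaks themselves. Combined peaks near a gene end lay mostly outside the gene, and their distances at the lower and the higher ends mirrored each other about a point 5.5 bp (chromosome V) to 53 bp (chromosome X) below the annotated position. Among other protein-coding genes called bound, the nearest centre lay outside the gene in 89.3% of cases. None of the 59 members had its nearest combined peak between 343.5 and 1017.5 bp from an end. No member changed its call when the centres were moved by these offsets.

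**Figure D1:**
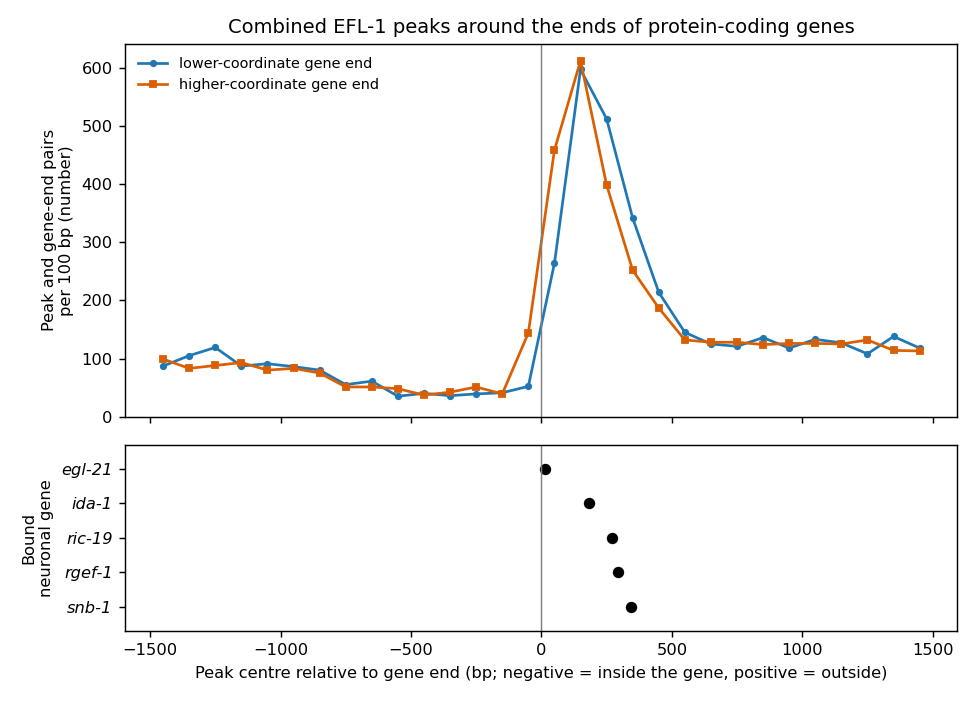
Combined peak centres around the lower-coordinate and higher-coordinate ends of all protein-coding genes (upper panel, pairs of a peak and a gene end per 100 bp; positive distances are outside the gene) and around the nearer end of the 5 bound neuronal genes (lower panel, 1 point per gene). Pairs pile up just outside gene ends, and the 5 neuronal points lie from 15.5 bp to 343.5 bp outside.

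Few neuronal genes carried a combined EFL-1 peak. Of the 59 genes, 5 were bound (8.47%), against 3920 of the 19912 other protein-coding genes, a background of 19.7%. The members' share was thus 0.43 times the background share. These are the pan-neuronal genes ric-19, snb-1, rgef-1 and egl-21, and ida-1, a gene of peptide-secreting neurons. Each had 1 combined peak near an end, and no member had 2 or more, as 1.88% of other genes did.

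The scarcity was not even between the classes. Pan-neuronal genes were bound in 4 of 16 cases (25%), and neuron-type genes in 1 of 43 (2.33%), a difference of 22.7 percentage points. The first share lies near the background of 19.7% and the second below it. The median distance to the nearest combined peak was 2110 bp for pan-neuronal genes and 6543 bp for neuron-type genes. Over all 59 members it was 4797.5 bp, against 5542.5 bp over other genes, so by this median neuronal genes did not lie farther from peaks. Genes are not replicates, and these shares are given as descriptions without a test.

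**Figure D2:**
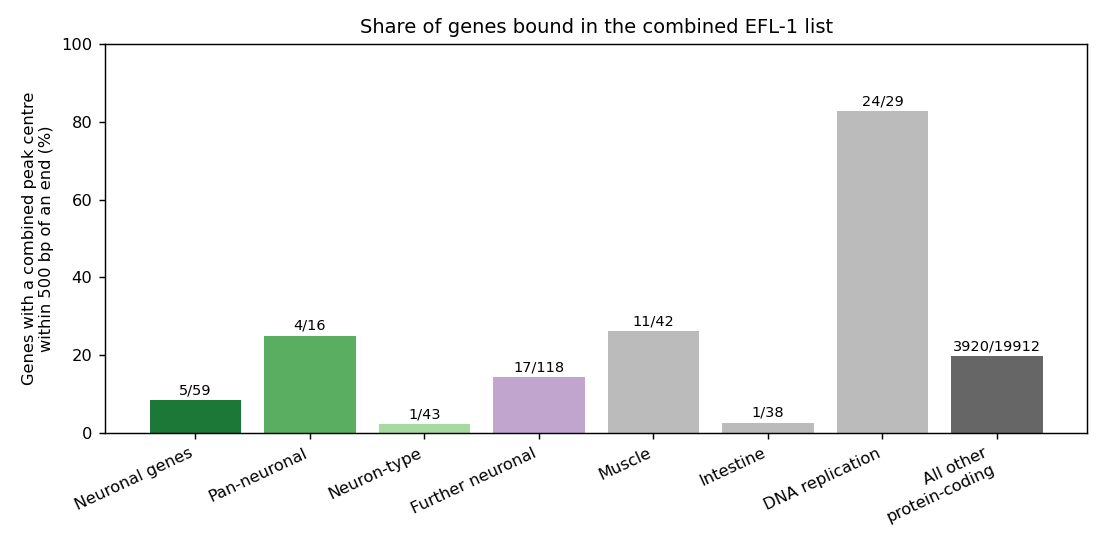
Share of genes with a combined peak centre within 500 bp of an end, in percent, for the neuronal genes, their pan-neuronal and neuron-type classes, 4 other lists and all other protein-coding genes; the bound and total numbers stand above the bars. Pan-neuronal genes (4 of 16) stand near the background (3920 of 19912), neuron-type genes (1 of 43) and intestine genes (1 of 38) well below it, and DNA replication genes (24 of 29) far above it.

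Among the 59 members, the strongest peak at a gene end was at ric-19. This gene encodes the homologue of the vesicle-associated autoantigen ICA69 and acts in dense core vesicle maturation. This peak lay on chromosome I from 3781715 to 3782002 (WS220), with number 561 of the 4966 in the combined list. A low number is taken here to mean a strong peak. In the replicates it was peak 519 (replicate 1) and peak 647 (replicate 2). Its combined centre lay 272.5 bp from the end of ric-19 and 259.5 bp from an end of the neighbouring gene pmlr-1. Replicate 1 placed it 280.5 bp from ric-19 and 251.5 bp from pmlr-1, and replicate 2 placed it at 281.5 and 250.5 bp. Each centre was thus nearer to pmlr-1. As the peak lay within 500 bp of both genes, distance alone does not assign it to 1 of them.

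Synaptobrevin, the vesicle SNARE that drives synaptic vesicle fusion, is encoded by snb-1. Its combined peak, number 1355, lay on chromosome V from 6656757 to 6656932, with its centre 343.5 bp outside the gene. The replicates placed it at number 1425 (replicate 1) and number 1232 (replicate 2). At the other end of this short gene (940 bp) each replicate had a further peak, which ranked 11465 (replicate 1) and 4103 (replicate 2), and whose centres lay 58.5 and 5.5 bp from an end of the neighbour syx-18. Replicate 2 also had peak 4494 inside the gene. The combined list had neither.

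Dense core vesicles, which store neuropeptides, carry the tyrosine phosphatase-like protein IDA-1. Its gene had combined peak 1295 on chromosome III from 5755256 to 5755458, 182 bp outside the gene. It was peak 1359 (replicate 1) and peak 1276 (replicate 2). The nearest end of another protein-coding gene, B0244.4, was 3615 bp away, which leaves ida-1 as the nearest gene. A second combined peak, number 3378, lay inside ida-1, 3293.5 bp from its nearer end.

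The other 2 bound genes had weaker combined peaks. The peak of egl-21, which encodes the carboxypeptidase that trims neuropeptide precursors, was number 2774 on chromosome IV from 10481695 to 10482024, and its centre lay 15.5 bp outside the gene. It was number 2466 (replicate 1) and number 3219 (replicate 2), where egl-21 had 2 more peaks near its lower end, numbers 5373 and 5799. The peak of rgef-1, a Ras guanine nucleotide exchange factor gene whose promoter is a common pan-neuronal driver, was number 3007 on chromosome V from 9561805 to 9562134. It lay 295.5 bp outside rgef-1 and 3367.5 bp from the nearest end of another protein-coding gene, and was number 3514 (replicate 1) and number 2867 (replicate 2).

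In both replicates the strongest peak near each of the 5 genes had its list's top score, 4.0001 (replicate 1) and 3.88 (replicate 2). The score has no stated unit and is tied over 5002 and 3810 peaks, so it does not order these genes, and the authors' peak numbers were used instead. The median combined number over the 5 genes was 1355, against 1893.5 over the other bound genes. The bound neuronal genes were therefore few, while their peaks were not among the weakest. When a peak was credited only to the protein-coding gene with the nearest end, 4 of 59 members were bound, against 13.9% of other genes, and ric-19 dropped out.

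The group listed for synaptic vesicle release holds 10 of the pan-neuronal genes, with ric-19 and unc-31, described here for dense core vesicles, among them. Of these 10, ric-19 and snb-1 were bound (2 of 10, or 20%, against the background of 19.7%). With peaks credited only to the gene with the nearest end, 1 of 10 was bound, against 13.9% of other genes. The nearest combined peak lay 1395.5 bp from the syntaxin gene unc-64 and 2295 bp from unc-31, the gene of the dense core vesicle priming factor CAPS. In rab-3, the vesicle GTPase gene, the nearest peak lay inside the gene, 2573.5 bp from an end. The nearest peak lay outside the gene by 3649.5 bp at ric-4 (SNAP-25), 4538.5 bp at unc-10 (RIM) and 4797.5 bp at snt-1 (synaptotagmin). In this group the distances were largest for the priming factor gene unc-13 (12564.5 bp) and for unc-18 (21176.5 bp), which encodes the syntaxin-binding partner.

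Just outside the limit of 500 bp, the nearest members were flp-1 at 1017.5 bp, egl-3 at 1046.5 bp and unc-33 at 1057.5 bp. FLP-1 is an FMRFamide-like neuropeptide, EGL-3 is the proprotein convertase that cleaves neuropeptide precursors, and UNC-33 is a CRMP protein of axon growth. Just inside it were ric-19, rgef-1 and snb-1, with the distances given above.

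Among neuron-type genes, none of the transmitter genes was bound in the combined list. That covers 4 acetylcholine genes, 3 GABA genes, 3 glutamate genes and 8 monoamine genes, against the background of 19.7%. Groups this small can hold no bound gene at such a share, so nothing is read from a single group. The nearest of them was the serotonin transporter gene mod-5, at 1790 bp, followed by the vesicular GABA transporter gene unc-47, at 1803.5 bp. The 4 touch receptor genes were likewise not bound, with the tubulin acetyltransferase gene mec-17 nearest at 1585.5 bp and the tubulin gene mec-7 farthest at 5857.5 bp.

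The sensory group of 10 genes had no bound member either, against the background of 19.7%. The TRPV channel gene osm-9 held a peak inside the gene, 1145.5 bp from an end, and the G protein gene odr-3 was the farthest of all 59 members from a peak, at 62936 bp. None of the 8 transcription factor genes was bound, and 3 of them lie on chromosome X, where the background was 11.7%. These groups too are small enough to hold no bound gene at such shares, so nothing is read from either. The homeobox gene unc-4 was nearest at 5194 bp, and the terminal selector genes unc-3 (6844.5 bp), unc-86 (10961.5 bp), che-1 (11194 bp), unc-30 (20144 bp) and ttx-3 (22071.5 bp) were farther away.

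**Figure D3:**
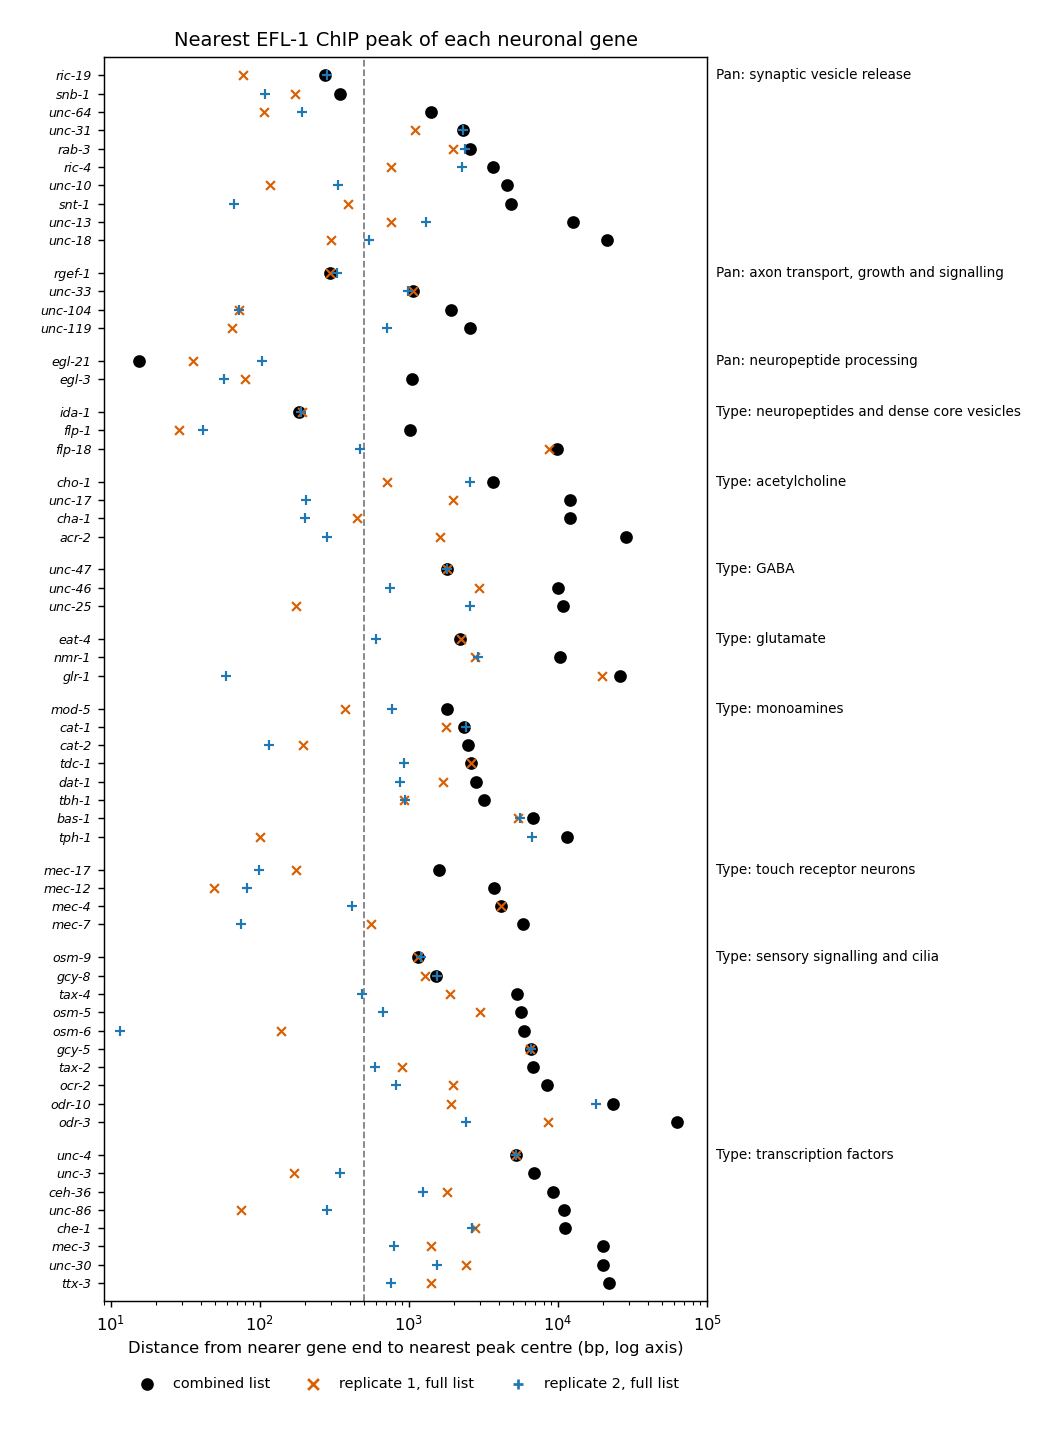
Distance from the nearer end of each of the 59 neuronal genes to the nearest peak centre, in bp on a log axis, in the combined list (black circles) and in the full lists of replicate 1 (orange crosses) and replicate 2 (blue plus signs); the dashed line marks 500 bp. Only 5 black circles lie left of the line, while many genes have a replicate peak there.

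Several neuronal genes held combined peaks inside the gene rather than at an end. Counting the gene body and 500 bp on both sides, 11 of 59 members had a peak, against 22% of other genes. By class these were 7 of 16 pan-neuronal (43.75%) and 4 of 43 neuron-type genes (9.30%). Beside the 5 genes above they were unc-33, unc-119, rab-3, mod-5, cat-1 and osm-9.

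Of these, unc-33 held 3 peaks, and the strongest, number 361 on chromosome IV from 3519452 to 3519708, lay 2694 bp from the nearer gene end. It had a lower number than the end peak of any of the 59 members. The peak in unc-119, a gene for a lipid-binding protein widely used as a pan-neuronal marker, was number 1117, 2566 bp from an end. The 2 peaks in mod-5 had numbers 2173 and 4011, and those in osm-9, rab-3 and cat-1 (the vesicular monoamine transporter gene) had numbers 3500, 3684 and 4357. Internal start sites were not examined, so whether such a peak lies at an alternative promoter was not tested.

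Neuronal genes are long, and the longest genes were bound most often. Their median length was 4837 bp, against 2001 bp for other protein-coding genes, and 38 of the 59 belonged to the longest of 4 length classes that hold equal numbers of other genes. In that class 24.5% of other genes were bound at an end and 32.1% had a peak in the body or within 500 bp of it. With other genes weighted to the members' length classes, 22.8% would be bound at an end, or 13.5 of 59, where 5 were found. For gene bodies with 500 bp on both sides the corresponding number was 16.6 of 59, where 11 were found. The median length was 6191 bp for pan-neuronal members and 4480 bp for neuron-type members. The class difference was not weighted for length.

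The count was below the background also with chromosomes taken into account. Chromosome X carried 13 of the 59 members (22.03%), against 13.6% of other genes, and none of the 13 was bound, where the background on X was 11.7%. On the autosomes 1 of 5 members was bound on I (background 28.4%), 0 of 9 on II (20%), 1 of 12 on III (30%), 1 of 13 on IV (19.6%) and 2 of 7 on V (13.4%). With other genes weighted to the members' chromosomes the share was 20.1%, or 11.8 of 59. Chromosomes III and II together held 21 members with 1 bound, and V held 2 of the 5 bound genes. The classes also differed here, with 12.5% of pan-neuronal and 25.6% of neuron-type genes on X. On the autosomes alone, 28.6% of pan-neuronal and 3.125% of neuron-type genes were bound, against 20.9% of other genes.

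Among weaker peaks the gap between neuronal and other genes narrowed. In replicate 1 the 4966 strongest peaks bound 5 of 59 members, against 19.5% of other genes, and the full list of 22275 peaks bound 23 (39.0%), against 44.4%. In replicate 2 the corresponding numbers were 6 members against 19.2%, and 25 members (42.4%) against 45% with 22464 peaks. The members' share was 0.44 (replicate 1) and 0.53 (replicate 2) times that of other genes among the 4966 strongest peaks, and 0.88 and 0.94 times in the full lists. The steps between were uneven: in replicate 1 the ratio was 0.56 at 2500 peaks, and among the 1000 strongest peaks 1 member alone was bound in each replicate. Of genes without a strong peak, 33.3% of members against 30.9% of other genes had a weaker one in replicate 1, and 35.8% against 31.8% in replicate 2. Over all 59 members, neuronal genes were thus scarce among strong peaks and near the background among weaker ones. The 2 classes differed in both respects. The 4966 strongest peaks bound 25% of pan-neuronal genes in each replicate, against 19.5% (replicate 1) and 19.2% (replicate 2) of other genes. For neuron-type genes the share was 2.33% (replicate 1) and 4.65% (replicate 2). At the limit of 500 bp the shortfall among strong peaks thus lay with the neuron-type genes. Without a strong peak, 58.3% of pan-neuronal and 26.2% of neuron-type genes had a weaker one in replicate 1. In replicate 2 these shares were 41.7% and 34.1%. The pan-neuronal shares rest on 12 genes without a strong peak. Of other genes, 22.7% were bound in 1 full list alone, so a call from a single full list carries less weight than a combined one.

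**Figure D4:**
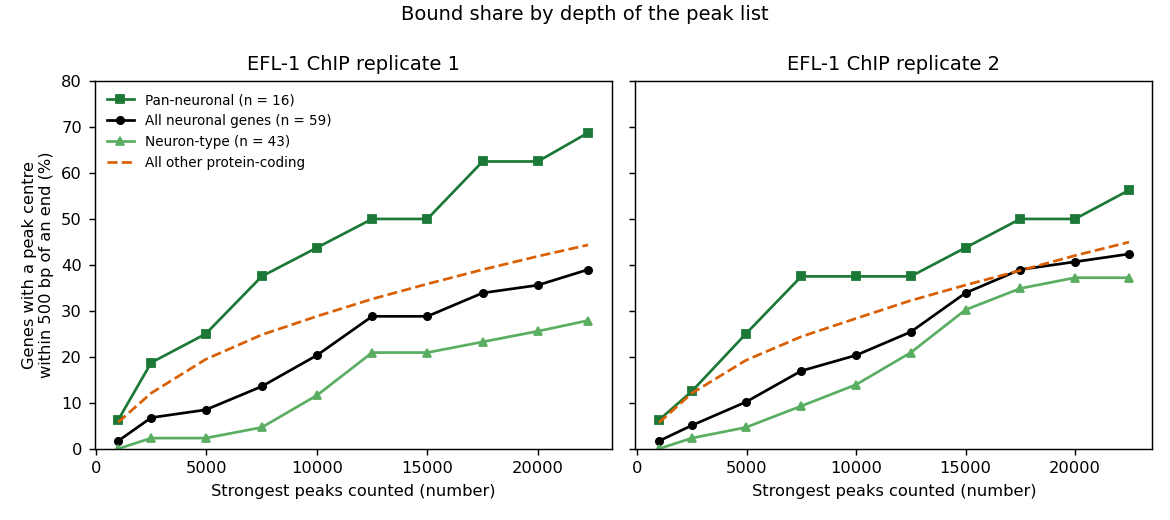
Percent of genes with a peak centre within 500 bp of an end as more of each replicate's strongest peaks are counted, for pan-neuronal genes (squares), all neuronal genes (circles), neuron-type genes (triangles) and all other protein-coding genes (dashed). In both replicates the curve of neuron-type genes stays below the dashed line and that of all neuronal genes nears it, with 1.69% against 5.76% at 1000 peaks in replicate 1 and 39.0% against 44.4% in its full list; in replicate 2 they meet near 17500 peaks (39.0% against 38.8%).

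The class difference also held in the full lists. Pan-neuronal genes were bound in 11 of 16 cases in replicate 1 and 9 of 16 in replicate 2, and neuron-type genes in 12 of 43 and 16 of 43. Both full lists bound 9 of 16 pan-neuronal genes (56.3%) and 9 of 43 neuron-type genes (20.9%), or 18 of 59 members in all, against 33.3% of other genes. In 17 of these 18 members, near peaks of both replicates overlapped by at least 1 bp, which is 28.8% of all members, against 29.7% of other genes. The exception was unc-86, the POU homeobox gene, whose peaks (7991 in replicate 1 and 14493 in replicate 2) did not overlap. A further 12 members were bound in 1 full list alone, 5 in replicate 1 and 7 in replicate 2 (20.3%, against 22.7% of other genes). Neither list bound the other 29 (49.2%, against 43.98%).

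Members with weak peaks in both replicates came from several roles. At egl-3 the peaks were number 5717 (replicate 1) and 7187 (replicate 2), and at unc-104, the gene of the kinesin that carries synaptic vesicle precursors, 7967 and 5786. Those of the tubulin gene mec-12 were 6179 and 6966, and those of mec-17 were 8724 and 8298. All of these rank below the 4966 strongest peaks of each list. Far weaker were the peaks of unc-64 (15093 and 12714), unc-10 (15077 and 15388), unc-3 (19090 and 19784) and snt-1 (20352 and 20533). The remaining pairs, at osm-6, flp-1 and cat-2, also ranked below the 4966 strongest peaks in both lists. Over the 18 members the median number was 8357.5 in replicate 1 and 7076.5 in replicate 2, against 3866 and 3950 over the other genes bound in both.

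**Figure D5:**
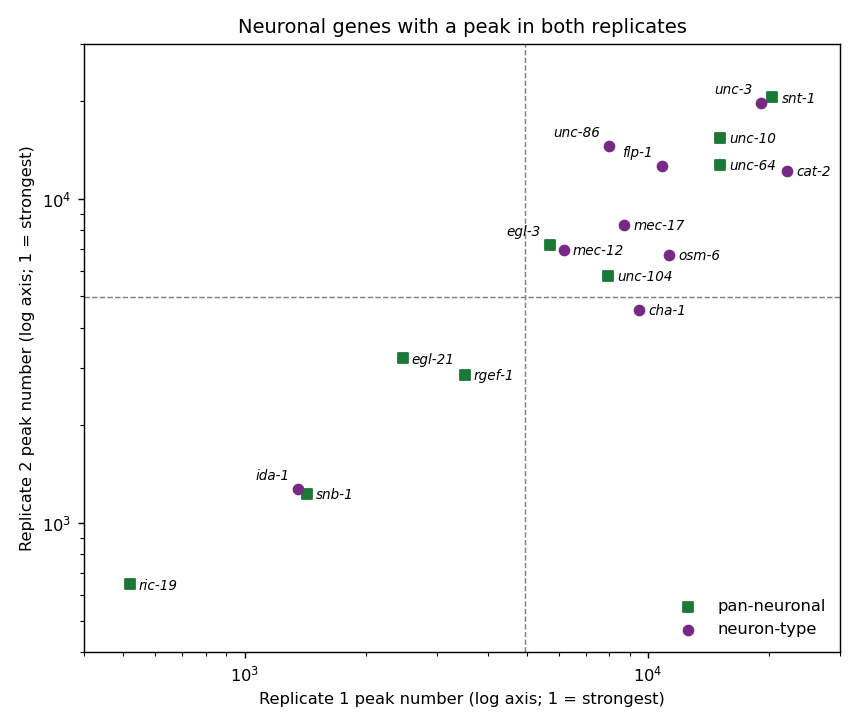
Number of the strongest peak within 500 bp of an end in replicate 1 and in replicate 2, on log axes, for the 18 neuronal genes bound in both full lists (1 is the strongest; dashed lines mark the 4966 strongest). The 5 genes of the combined list lie at the lower left, cha-1 is beyond the line in replicate 1 alone, and 12 genes lie beyond both lines.

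The member bound among the strongest peaks of 1 replicate alone was cha-1, which encodes choline acetyltransferase. The replicates ranked its peak 4538 (replicate 2) and 9505 (replicate 1). It lay 451.5 bp from cha-1 in replicate 2 and 407.5 bp from another gene, ltah-1.2. The gene of the vesicular acetylcholine transporter, unc-17, shares its first exon with cha-1, and in the table their higher ends lie 2 bp apart. The peak was at the opposite end of cha-1. A shared first exon places the start at the shared end, so by the intended rule this peak would not count. At the shared end only replicate 2 had a peak, number 12557, and it counts for both genes.

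A further list of 118 neuronal genes, without the members, was also split by class. Of these, 17 were bound in the combined list (14.4%), against the background of 19.7%. The 37 genes for synapse and axon functions shared by many neurons included 15 bound ones (40.5%), a higher share than that of the pan-neuronal members (25%), and the 81 neuron-type genes included 2 (2.47%). None of 28 genes for transmitters, receptors and peptides and none of 28 sensory and cilia genes was bound. The lowest combined numbers were at egl-30 (the Gq alpha gene, number 94), unc-14 (481), unc-40 (the netrin receptor gene, 726), unc-16 (749) and unc-76 (995). Many genes of the shared class are also used outside neurons, so it is not a purely neuronal group.

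Among other tissues, 11 of 42 muscle genes (26.2%) and 1 of 38 intestine genes (2.63%) were bound. The muscle gene with the lowest number was deb-1 (vinculin, 412), and the intestine gene was erm-1 (2549), an ezrin-type gene of the apical cell surface. DNA replication genes, the textbook targets of E2F factors, were bound in 24 of 29 cases (82.8%), with rnr-1, a ribonucleotide reductase gene, at number 28. At the limit of 500 bp the share of neuron-type genes was thus close to that of intestine genes, and that of pan-neuronal genes to that of muscle genes. The pan-neuronal share rests on 4 of 16 genes and was 6.25% at 250 bp, so this likeness is a loose one.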

How the data were processed

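ChIP-seq peak lists of 2 EFL-1 ChIP replicates and 1 combined list were used. The peaks came from SPP via IDR in WS220 coordinates, per the file headers and lines. The sources used here do not name the aligner, versions, thresholds or the use of the input. The deposited score of each peak has no stated unit. It was the same for all 4966 combined peaks, so the number in the peak's name served as rank. That a low number marks a strong peak is an assumption among peaks of equal score. In replicate 1 the cut at 4966 peaks falls among the 5002 peaks with the top score. Read depth is unknown, and the input samples were not analysed here. Replicates are numbered as in the sample titles. Each list was tied to its sample by the GEO record, although the names of the lists carry other replicate numbers. The labels do not say whether they came from separate cultures.

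Distances were computed in Python 3.11.15 with numpy 2.4.6 and pandas 2.3.3 and drawn with matplotlib 3.10.9. Genes came from RefSeq (WBcel235), and all 59 members matched by symbol, as did 286 of 287 genes over all lists. The table gives no strand, so either gene end was used in place of the planned start, for all genes alike. Gene coordinates, promoter sequences and the planned motif search are not reported here. The 9 repeated intervals of the combined list counted once per gene. Calls and offsets were first tested on simulated peaks. Named were the members bound in the combined list or among a replicate's strongest peaks and those around the 500 bp limit, plus up to 5 genes of other lists. Other members were named after their values were seen. The members and lists were chosen with earlier results of these data known, and no set test was made.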

Additional observations from a re-analysis of the deposited data

How the results depend on the processing

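The members' bound share, its difference from other genes, and the class difference kept their direction under each alternative list and limit named here. When the lists were cut at other depths, the members stood above other genes in replicate 2 at 17500 peaks (39.0% against 38.8%). In place of 8.47%, the members' share was 39.0% in the full list of replicate 1, 42.4% in that of replicate 2 and 30.5% in both, which hold more peaks, and 18.6% over gene bodies with 500 bp on both sides. It was 8.47% at 400, 600 and 1000 bp, against 17.8%, 20.9% and 24.9% of other genes. At 250 bp, a limit that drops ric-19, rgef-1 and snb-1, it was 3.39%, against 13.1%. There the class difference was 3.92 percentage points in place of 22.7. The stronger 2483 combined peaks bound 3 members (5.08%), against 12.2% of other genes. Members fell short of other genes by 11.2 percentage points at 500 bp in the combined list. The shortfall was 16.43 points at 1000 bp and 2.58 points in the full list of replicate 2. Without replicate 1 or without replicate 2, where the other replicate's strongest peaks stood in, the share was 8.47 to 10.2%, the difference from other genes -10.99 to -9.07 points and the class difference 20.3 to 22.7 points. The median peak number of the 5 bound genes stayed within 1.5 times in both replicates. Moved centres and the joint full lists were chosen after seeing the data. The motif alternative was not run. No paired analysis was possible because only ChIP peak lists were used and no result compares groups of samples. Without read depth, a missing weak peak cannot be told from a missed one.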
